A study of Mus musculus with 11 samples.

Results

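Human genetic studies have placed risk of Alzheimer's disease at many genes, and the mouse orthologues of 32 of them were examined here in the cerebral cortex of a mouse model of amyloidosis with or without Abi3, itself a risk gene. The 32 genes were taken as a list of symbols and matched to the 53700 gene identifiers of the count tables, and each matched exactly 1 identifier. The rule uses symbols and no measured value. From what is generally known of their expression, 9 of the 32 genes were set apart as microglia-enriched (Plcg2, Inpp5d, Cd33, Blnk, Rin3, Scimp, Treml2, Cass4 and Grn) and the other 23 were treated as 1 group.

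RNA from cerebral cortex of female mice aged 8 months was profiled with QuantSeq, which sequences a tag at the poly(A) end of transcripts so that counts do not scale with transcript length. The labels give 6 animals with 5xFAD and wildtype Abi3 (hereafter Abi3+/+) and 5 with 5xFAD and Abi3 knockout (Abi3-/-), all of strain C57BL/6, with 1 library for each animal. Both groups carry the 5xFAD transgenes, human genes with familial Alzheimer's disease mutations under the neuronal Thy1 promoter, so the comparison is of Abi3 genotype within an amyloid model, and no mice without amyloid were part of it. The transgenic line has a B6SJL background, and the Abi3 allele is a targeted deletion of the locus made in C57BL/6N. All mice analysed were heterozygous for a naturally occurring allele of another gene from the SJL background.

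As background, the risk genes fall into a few processes. Receptors on microglia, the resident phagocytes of the brain, signal through tyrosine kinases to phospholipase C gamma 2 and are opposed by phosphatases such as the one encoded by Inpp5d. Other risk genes act in clathrin-mediated uptake and endosomal sorting, in lipid export, in the lysosome and the shedding of membrane proteins, or at cell adhesions. ABI3 is a subunit of the WAVE complex, which drives actin branching, and in the brain it is expressed mainly by microglia.

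Between 3202310 and 5501958 reads per library fell in genes, so that a floor of 3 counts equalled 0.545 to 0.937 CPM (counting error only). The targeted gene followed the labels, with 10 to 38 raw counts of Abi3 in Abi3+/+ animals and 0 to 2 in Abi3-/- animals. Reads outside annotated genes amounted to 59.3 to 68.8 per 100 reads in genes in Abi3+/+ libraries and 49.8 to 62.5 in Abi3-/- libraries. The neuronal markers summed to 16127 to 18672 normalized counts in Abi3+/+ and 17889 to 19849 in Abi3-/- animals. No other tissue or brain region was compared, so this sum cannot check the label of cerebral cortex. The summed level of 12 microglia markers was 3053 to 4288 in Abi3+/+ and 3567 to 4957 in Abi3-/- animals. Of these 12 markers 11 had a log2 fold change above 0, and 1, Ctss, passed the test. No gene of the neuron, astrocyte, oligodendrocyte, endothelial, mural, meningeal, choroid plexus, red blood cell or T cell marker lists passed. The 4 choroid plexus markers summed to 52.1 to 3539 normalized counts in Abi3+/+ and 79.8 to 2318 in Abi3-/- animals, a wide spread within both groups. Fewer cells of a type and less RNA per cell cannot be told apart in bulk tissue.

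Of the 32 risk genes, 29 had enough counts to be tested, and 2 of these rose in Abi3-/- cortex, Tspan14 and Mef2c. No member fell. The test was DESeq2 with an adjusted p at or below 0.05, which 85 of 17626 genes passed, or 0.482%. The genes that passed as higher in Abi3-/- cortex numbered 55, or 0.312%. Among members the share was 6.90%, from 2 genes. The tool leaves low-count genes without an adjusted p, here those under a mean of 66.6 normalized counts. It gave one to 6690 genes, of which 1.27% passed, and to 15 of the 29 members. With edgeR and with limma, 0 members passed an adjusted p of 0.05, and 4 members had an unadjusted edgeR p at or below 0.05. An unadjusted DESeq2 p at or below 0.05 was found for 5 members, or 17.2%, against 8.58% of all genes tested, and in these 5 the Abi3-/- mean was the higher. The other 3 were Tmem106b, Snx1 and Plcg2. In 1 member, Snx1, the values of the groups did not overlap, which is 3.45% of the 29 against 1.04% of all genes. With counts of 1 and 2 genes these shares are descriptions. Over the 29 members 15 log2 fold changes were above 0 and 14 below, with a median of 0.04 against -0.0033 for all genes tested.

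**Figure D1:**
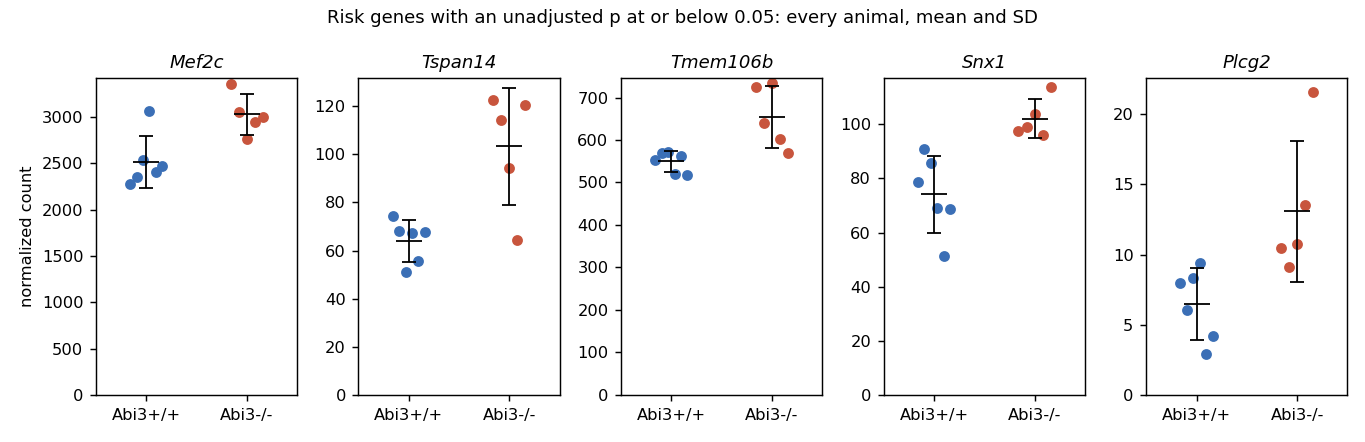
Normalized counts (y axis, from 0) of the 5 risk genes with an unadjusted DESeq2 p at or below 0.05, in 6 Abi3+/+ (blue) and 5 Abi3-/- (red) animals; points are animals, horizontal marks the mean and bars the SD. Snx1 is the panel without overlap, while 1 Abi3-/- animal lies among the Abi3+/+ animals for Tspan14 and 1 Abi3+/+ animal lies among the Abi3-/- animals for Mef2c.

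Tspan14 (ENSMUSG00000037824, chromosome 14, 40626016 to 40689527 in GRCm39, minus strand) encodes a tetraspanin that binds the sheddase ADAM10 and helps bring it to the cell surface. Its normalized counts in the Abi3+/+ animals ran from 51.3 to 74.2 with a median of 67.5. In Abi3-/- replicates 1 to 5 they were 123, 114, 94.3, 64.4 and 121. All of these animals but replicate 4 were above every Abi3+/+ animal. The mean rose from 64.1 ± 8.68 (SD, n = 6) to 103.2 ± 24.4 (SD, n = 5), and the log2 fold change was 0.69 (SE 0.197; DESeq2 adjusted p = 0.0417). The 95% interval of the fold ran from 1.24 to 2.11, and the exact permutation test over the 462 splits of the animals, two-sided, gave p = 0.0108. Permutation p-values here and below are for single genes picked by their unadjusted p, and are not adjusted for the number of members tested. Replicate 4 was also the Abi3-/- library with the most reads outside genes, 62.5 per 100 and inside the Abi3+/+ range, against 49.8 to 53.7 in the other Abi3-/- libraries. With that share as a covariate the log2 fold change of Tspan14 was 0.37 and the DESeq2 adjusted p was 1. With the microglia marker level as a covariate it was 0.79 and the call was lost (DESeq2 adjusted p = 0.101). The part of these reads in the result was not tested further. Tspan14 kept its call in 1 of 11 fits that left out an animal, the one without Abi3-/- replicate 4 (DESeq2 adjusted p = 0.00305), and in 7 of them it was given no adjusted p.

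Mef2c (ENSMUSG00000005583, chromosome 13, 83652064 to 83815555, plus strand) encodes a MADS-box transcription factor of neurons that also acts in microglia. Abi3+/+ animals had 2277 to 3060 normalized counts with a median of 2440. Abi3-/- replicates 1 to 5 had 3360, 3057, 2766, 2948 and 3004. All 5 were above the Abi3+/+ median, and the ranges overlapped because Abi3+/+ replicate 4, at 3060, lay among the Abi3-/- animals. Means were 2518 ± 280 (SD, n = 6) and 3027 ± 216 (SD, n = 5), and the log2 fold change was 0.27 (SE 0.0746; DESeq2 adjusted p = 0.0382). The difference was smaller than that of Tspan14 and had a narrower 95% interval, 1.09- to 1.33-fold (exact permutation test, two-sided, p = 0.0173). Leaving out Abi3-/- replicate 1, 2 or 5 or Abi3+/+ replicate 1 or 5 took the call away, and it stood in the other 6 of 11 fits. With the reads outside genes as a covariate the log2 fold change was 0.26 and the DESeq2 adjusted p was 1. Taking the microglia marker level as a covariate gave 0.40, with a DESeq2 adjusted p of 0.000767. A filter of at least 10 counts in at least 5 animals took the call away (DESeq2 adjusted p = 0.0563).

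Tmem106b (ENSMUSG00000029571, chromosome 6, 13069748 to 13089285, plus strand) encodes a lysosomal membrane protein. The Abi3+/+ animals lay close together, from 518 to 572 normalized counts with a median of 558.5. Abi3-/- replicates 1 to 5 had 726, 639, 734, 603 and 569, so that replicate 5 alone fell within the Abi3+/+ range. The log2 fold change was 0.25 (SE 0.0839), which did not pass in the fit across all genes (DESeq2 adjusted p = 0.111). The exact permutation test for this gene alone gave p = 0.00649, two-sided. Over the 11 fits that left out an animal it passed in 1, without Abi3-/- replicate 5 (DESeq2 adjusted p = 0.0425), and failed in 10, with adjusted p-values up to 0.290. With the reads outside genes as a covariate the log2 fold change was 0.15.

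Snx1 (ENSMUSG00000032382, chromosome 9, 65994391 to 66033869, minus strand) encodes a sorting nexin that forms membrane tubules with the retromer on endosomes. Abi3+/+ animals had 51.4 to 91.0 normalized counts with a median of 73.9. The Abi3-/- replicates had 97.5, 99.0, 104, 96.0 and 114, all above the Abi3+/+ animals and closer to each other, with a coefficient of variation of 7.06% against 19.2%. The log2 fold change was 0.46 (SE 0.179) and did not pass across all genes (DESeq2 adjusted p = 0.211). The exact permutation test on the same counts, for this gene alone, gave p = 0.00433, two-sided. With the reads outside genes as a covariate the log2 fold change was 0.30.

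Plcg2 (ENSMUSG00000034330, chromosome 8, 118224988 to 118361881, plus strand) encodes phospholipase C gamma 2, the enzyme downstream of several microglial receptors. It rested on few reads, 4 to 19 raw counts per animal. Normalized counts were 2.90 to 9.37 in Abi3+/+ animals with a median of 7.01. The Abi3-/- replicates had 10.49, 9.09, 10.7, 13.6 and 21.6, and 4 of them were above every Abi3+/+ animal. The log2 fold change was 1.03 with an SE of 0.508, and the 95% interval of the fold ran from 1.02 to 4.06. DESeq2 gave no adjusted p at this depth, edgeR gave 0.639, and the exact permutation p was 0.00433, two-sided. The spread between Abi3+/+ animals, 39.2%, was about that of read counting alone, 38.0%.

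The sequences before the transcription starts of these 5 genes are shown because their Abi3-/- means were higher together. They are the 250 bases upstream of starts listed by RefSeq in build GRCm38.p6, on the strand of the gene. Capitals mark GAGGAA or its reverse complement TTCCTC, the core with flank that PU.1, a transcription factor of microglia and other myeloid cells, binds. The table lists 2 starts for Tspan14, 3 for Mef2c and 1 for each of the other genes, and all are shown.
Tspan14, first start, chr14:40966897-40967146, minus strand: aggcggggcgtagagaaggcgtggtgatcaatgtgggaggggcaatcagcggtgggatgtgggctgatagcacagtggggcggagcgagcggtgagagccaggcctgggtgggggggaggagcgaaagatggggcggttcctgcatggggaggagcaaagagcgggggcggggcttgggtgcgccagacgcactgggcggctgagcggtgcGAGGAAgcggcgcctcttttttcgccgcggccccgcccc
Tspan14, second start, chr14:40948210-40948459, minus strand: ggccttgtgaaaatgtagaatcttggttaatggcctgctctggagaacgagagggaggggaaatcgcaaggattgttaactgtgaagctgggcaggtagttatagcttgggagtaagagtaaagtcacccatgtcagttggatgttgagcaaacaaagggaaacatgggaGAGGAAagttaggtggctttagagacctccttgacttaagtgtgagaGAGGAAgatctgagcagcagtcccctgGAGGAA
Mef2c, first start, chr13:83503784-83504033, plus strand: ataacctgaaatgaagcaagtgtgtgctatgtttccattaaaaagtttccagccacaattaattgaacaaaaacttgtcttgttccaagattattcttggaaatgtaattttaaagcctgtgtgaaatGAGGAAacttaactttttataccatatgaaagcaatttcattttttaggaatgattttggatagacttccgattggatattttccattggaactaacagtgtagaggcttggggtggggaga
Mef2c, second start, chr13:83523406-83523655, plus strand: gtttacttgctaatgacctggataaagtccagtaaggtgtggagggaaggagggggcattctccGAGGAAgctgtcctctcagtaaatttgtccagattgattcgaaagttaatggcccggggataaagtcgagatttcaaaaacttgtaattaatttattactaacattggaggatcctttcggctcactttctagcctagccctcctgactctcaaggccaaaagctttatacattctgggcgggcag
Mef2c, last start, chr13:83573357-83573606, plus strand: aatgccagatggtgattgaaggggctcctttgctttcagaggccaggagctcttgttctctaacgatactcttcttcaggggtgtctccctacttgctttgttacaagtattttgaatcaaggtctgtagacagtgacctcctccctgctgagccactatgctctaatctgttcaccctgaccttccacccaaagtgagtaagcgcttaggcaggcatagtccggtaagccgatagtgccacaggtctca
Tmem106b, chr6:13069509-13069758, plus strand: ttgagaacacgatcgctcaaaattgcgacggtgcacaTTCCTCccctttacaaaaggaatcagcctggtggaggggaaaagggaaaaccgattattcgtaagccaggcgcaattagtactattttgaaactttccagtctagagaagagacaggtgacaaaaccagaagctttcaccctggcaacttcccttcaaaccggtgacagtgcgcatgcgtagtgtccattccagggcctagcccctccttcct
Snx1, chr9:66124887-66125136, minus strand: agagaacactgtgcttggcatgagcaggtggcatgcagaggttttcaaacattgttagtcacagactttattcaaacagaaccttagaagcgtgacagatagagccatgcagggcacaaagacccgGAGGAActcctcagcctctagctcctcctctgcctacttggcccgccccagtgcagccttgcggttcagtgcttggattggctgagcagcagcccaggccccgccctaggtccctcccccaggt
Plcg2, chr8:117498025-117498274, plus strand: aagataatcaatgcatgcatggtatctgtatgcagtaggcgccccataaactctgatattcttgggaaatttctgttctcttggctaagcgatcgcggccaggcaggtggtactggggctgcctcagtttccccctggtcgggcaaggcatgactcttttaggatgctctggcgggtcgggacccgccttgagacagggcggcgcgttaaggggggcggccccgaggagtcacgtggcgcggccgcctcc

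The 6 letters occurred in both windows of Tspan14, with 1 and 3 matches, in 2 of the 3 windows of Mef2c and in those of Tmem106b and Snx1. They did not occur in the last window of Mef2c or in that of Plcg2. The promoter table held 25 of the 32 members, and 12 of these (48.0%) had at least 1 match in a 250-base window, against 25.9% of 27025 genes. By class, 3 of 7 microglia-enriched members and 9 of 18 other members had a match. Genes with several listed starts have several windows, and over single windows the share was 23.3% of 32851. A match describes the letters only.

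The remaining members did not pass the test, and the intervals of their differences are set out by role. Among all 29 tested members the 95% interval included 0 for 24. For 9 of the 24 it lay within 0.5 of 0 on the log2 scale, and the others reached past 0.5 on at least 1 side.

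**Figure D2:**
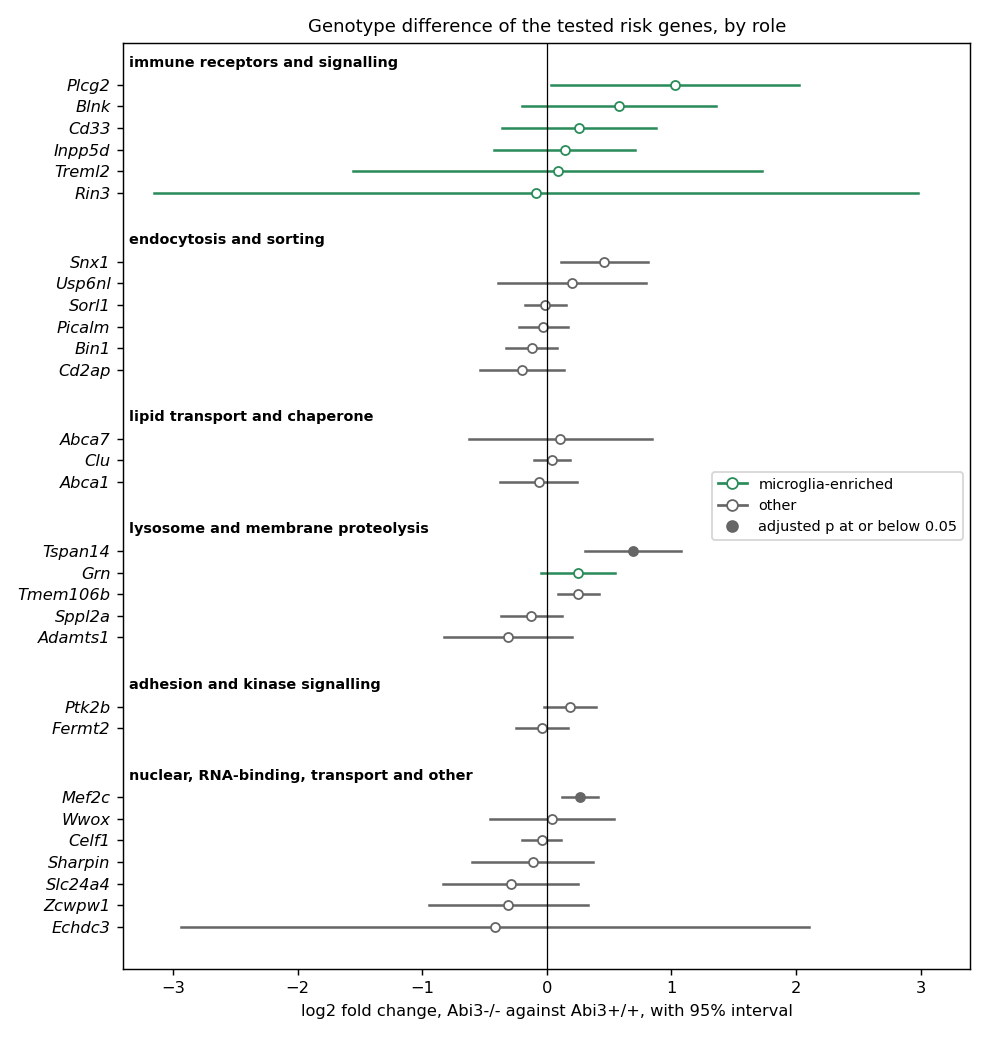
Log2 fold change of Abi3-/- against Abi3+/+ (x axis) with its 95% interval for the 29 tested risk genes, grouped by role; green marks the microglia-enriched members, grey the others, and filled points an adjusted p at or below 0.05. The 2 filled points are Tspan14 and Mef2c, and the widest intervals belong to Rin3, Echdc3 and Treml2.

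Of the 7 members that are immune receptors or their signalling proteins, 6 were tested, none was given an adjusted p, and 5 of the 6 log2 fold changes were above 0. Their median was 0.20, and 0.52 with the microglia marker level as a covariate. With the reads outside genes as a covariate the median was -0.22, with Treml2, Blnk and Rin3 below 0. Blnk, an adaptor that couples the kinase SYK to phospholipase C gamma, had 7.97 to 40.8 normalized counts in Abi3+/+ animals with a median of 23.2. In the Abi3-/- replicates it had 36.7, 66.7, 28.6, 16.9 and 29.6. Only replicate 2 was outside the Abi3+/+ range, and the log2 fold change was 0.58 (SE 0.398). Without 1 animal this value ran from 0.22 to 0.81. It was -0.71 with the reads outside genes as a covariate and 0.76 with the microglia marker level. Cd33, a sialic acid-binding inhibitory receptor, had 14.8 to 34.8 with a median of 25.5 in Abi3+/+ animals. The Abi3-/- replicates had 21.0, 36.4, 34.6, 27.1 and 26.2, which is nearly the same range, with a log2 fold change of 0.26 (SE 0.315).

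Inpp5d, the lipid phosphatase SHIP1 that counteracts these receptors, had 25.1 to 36.8 normalized counts in Abi3+/+ animals with a median of 34.0. Abi3-/- replicates 1 to 5 had 24.1, 22.2, 38.2, 41.8 and 51.2. These animals lay on both sides of the Abi3+/+ range, with a log2 fold change of 0.14 (SE 0.288) that became -0.15 with the microglia marker level as a covariate. In an annotation later than that used for counting, another gene overlaps the span of Inpp5d on the same strand. The same holds for Picalm, Sppl2a, Ptk2b, Fermt2 and Wwox. Their counts would be uncertain where reads fell in both genes, and whether the overlapping genes were counted was not checked. Treml2, a receptor of the TREM family, had 0 to 11.5 with a median of 4.15 in Abi3+/+ animals and 5.24, 12.1, 1.19, 1.13 and 6.83 in the Abi3-/- replicates. At 58 raw counts over all animals its 95% interval ran from -1.55 to 1.73 and a difference was not detectable. Rin3, an exchange factor for RAB5, had 22 raw counts in all and a log2 fold change of -0.09 (SE 1.56). Scimp, a transmembrane adaptor, had 0 counts in all 11 libraries and was not tested.

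Among genes of endocytosis and sorting, Snx1 has been described, and the other 5 members did not pass either. Bin1, which bends membranes at sites of endocytosis, had means of 363 ± 41.6 (SD, n = 6) and 334 ± 33.8 (SD, n = 5), and the log2 fold change was -0.12 (SE 0.106). Picalm, a clathrin assembly protein, had a log2 fold change of -0.03 and a 95% interval from -0.23 to 0.17. Sorl1, a sorting receptor for the amyloid precursor protein, was counted deeply, at 1225 ± 49.5 (SD, n = 6) and 1215 ± 177 (SD, n = 5). The log2 fold change was -0.01 with an interval from -0.18 to 0.15. Single animals ran from 1163 to 1297 in Abi3+/+ and from 970.5 to 1418 in Abi3-/-, and the difference in spread was not tested. Cd2ap, an adaptor between endocytic membranes and actin, and Usp6nl, a RAB5 GTPase-activating protein, had log2 fold changes of -0.20 (SE 0.172) and 0.20 (SE 0.304).

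In lipid transport, none of the 3 members passed. Clu, a secreted chaperone made mainly by astrocytes, had mean normalized counts of 2058 ± 227 (SD, n = 6) and 2120 ± 116 (SD, n = 5). Its 95% interval, 0.932- to 1.14-fold, was among the narrowest. Abca1, the exporter that loads lipid onto apolipoproteins, had a log2 fold change of -0.06 (SE 0.158). That of Abca7, a related transporter, was 0.11 (SE 0.374).

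The lysosome and membrane proteolysis group held Tspan14 and Tmem106b, and 3 of its 5 members had a log2 fold change above 0. Grn, which encodes the lysosomal protein progranulin, had 180 to 286 normalized counts in Abi3+/+ animals with a median of 203. In the Abi3-/- replicates it had 187, 304, 272, 299 and 264. Of the 5, 4 were above the Abi3+/+ median and the ranges overlapped. The log2 fold change was 0.25 (SE 0.152) and did not pass (DESeq2 adjusted p = 0.524). It was -0.08 with the microglia marker level as a covariate and 0.48 with the reads outside genes. Grn lies on chromosome 11, 6.59 Mb from Abi3. Sppl2a, an intramembrane protease, and Adamts1, a secreted metalloprotease, had log2 fold changes of -0.12 (SE 0.126) and -0.31 (SE 0.261).

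Among genes of adhesion and kinase signalling, Ptk2b, a focal adhesion kinase abundant in neurons, had mean normalized counts of 417 ± 54.8 (SD, n = 6) and 474 ± 54.8 (SD, n = 5). All 5 Abi3-/- animals were above the Abi3+/+ median. Its log2 fold change was 0.18 (SE 0.107) and did not pass (DESeq2 adjusted p = 0.506). Fermt2, which activates integrins at adhesions, had a log2 fold change of -0.04 and a 95% interval from -0.25 to 0.17. Epha1, an ephrin receptor, had 1 raw count in 1 animal, and Cass4, an adhesion scaffold, 16 raw counts in 3 animals. Neither was tested.

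The remaining members act in the nucleus, on RNA, in transport or elsewhere. Besides Mef2c there were 6, of which 5 had a log2 fold change below 0. Celf1, an RNA-binding regulator of splicing and decay, had mean normalized counts of 1028 ± 104 (SD, n = 6) and 999.6 ± 68.5 (SD, n = 5). Its 95% interval ran from -0.20 to 0.12. Zcwpw1, a reader of histone methylation, and Slc24a4, a sodium, calcium and potassium exchanger, had log2 fold changes of -0.31 (SE 0.326) and -0.29 (SE 0.275). The ubiquitin ligase subunit Sharpin had -0.11 (SE 0.247) and the WW-domain oxidoreductase Wwox 0.04 (SE 0.254). Echdc3, related to fatty acid enzymes, had 25 raw counts over all animals and an interval from -2.935 to 2.105.

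The microglia-enriched risk genes were next compared with the others. Of the 9, 7 were tested, none passed and 1, Plcg2, had an unadjusted DESeq2 p at or below 0.05. Their median log2 fold change was 0.25, with 6 of 7 above 0. Of the other 23, 22 were tested, 2 passed, 4 had an unadjusted p at or below 0.05, and the median was -0.03 with 9 above 0 and 13 below. The median of the first list was therefore higher by 0.28. This difference was not tested, since the lists were chosen with results known.

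Animal by animal the microglia-enriched list was the more variable. The median over its genes of each animal's deviation from the mean of Abi3+/+ animals, on the log2(normalized count + 1) scale, ran from -0.51 to 0.57 in Abi3+/+ and from 0.23 to 0.64 in Abi3-/- animals. Abi3+/+ replicates 2 and 3, at 0.57 and 0.41, were inside the Abi3-/- range. For the other risk genes it ran from -0.05 to 0.03 and from -0.05 to 0.15. The depth also differed: 1 of the 7 tested microglia-enriched members, Grn, but 14 of the 22 others had enough counts for an adjusted p. The microglia marker level had a median of 3316 in Abi3+/+ and 4107 in Abi3-/- animals. The groups overlapped, Abi3+/+ replicate 1 at 4288 being above all Abi3-/- animals but replicate 4, and the sum was not tested. The sum is unweighted, and its largest part was Ctss, the marker that passed. Ctss had mean normalized counts of 990 in Abi3+/+ and 1344 in Abi3-/- animals, and the whole sum 3456 and 4160. The marker level used as a covariate therefore holds a large share from a gene that differed by genotype. With that level as a covariate the median log2 fold changes of the lists were 0.28 and -0.04. With the reads outside genes as a covariate they were 0.26 and -0.02. Single microglia-enriched members moved more than their median. With the reads outside genes Rin3 was -4.51, Treml2 -2.67 and Blnk -0.71. Cd33 was then 0.26, Inpp5d 0.47, Grn 0.48 and Plcg2 1.00. With the microglia marker level Inpp5d and Grn were below 0, at -0.15 and -0.08, and the other tested members of this list above 0.

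**Figure D3:**
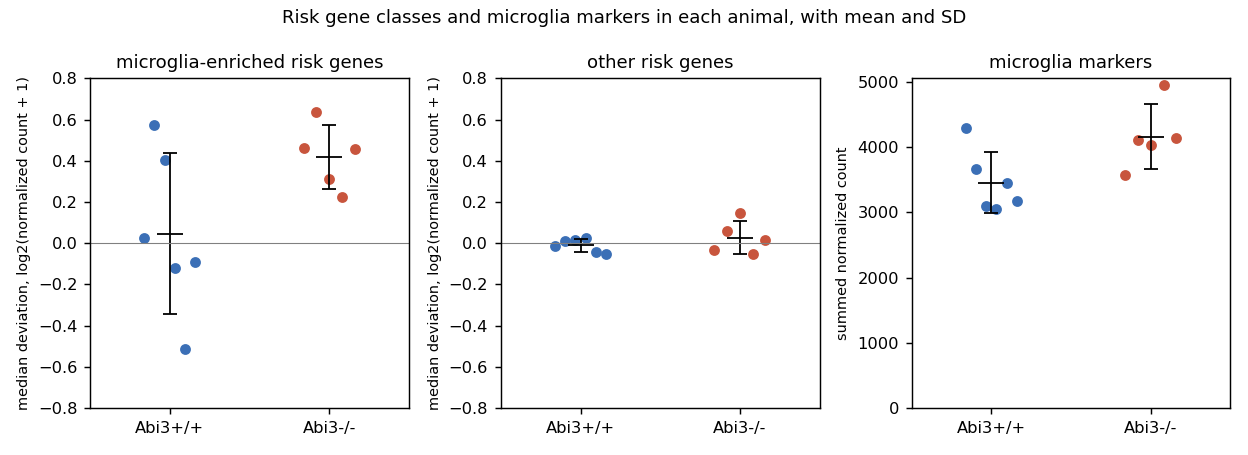
Median deviation of the microglia-enriched and of the other risk genes in each animal (left and middle, log2(normalized count + 1), 0 being the Abi3+/+ mean of each gene) and summed normalized count of 12 microglia markers (right, from 0), with mean and SD of each group. The microglia-enriched list spans -0.51 to 0.57 in Abi3+/+ animals, and the other list stays between -0.05 and 0.15 in all 11.

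Genes that work with the members were examined as 4 lists. In signalling through immunoreceptor tyrosine-based activation motifs and phospholipase C, the pathway around Plcg2, Blnk and Inpp5d, 0 of 14 genes passed and 2 had an unadjusted p at or below 0.05, against 8.58% of all genes. Both were adaptors that carry the motif. Fcer1g had mean normalized counts of 102.9 ± 27.7 (SD, n = 6) and 149 ± 29.1 (SD, n = 5), with a log2 fold change of 0.53 (DESeq2 adjusted p = 0.179). Tyrobp had a log2 fold change of 0.30 (DESeq2 adjusted p = 0.429), and the kinase Syk 0.83 on a mean of 6.63 counts in Abi3+/+ animals. The median of the list was 0.13. With the microglia marker level as a covariate this median was -0.09, and with the reads outside genes 0.77.

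Endosome, clathrin coat and retromer genes surround Bin1, Picalm, Sorl1 and Snx1. Of 25 genes tested 1 passed, Rab5c, or 4% against 0.482% of all genes, and 6 had an unadjusted p at or below 0.05, or 24% against 8.58%. The Abi3-/- mean was the higher in 5 of these and the lower in 1, Ap2s1. Rab5c, a GTPase of early endosomes, had 195 to 254 normalized counts in Abi3+/+ animals, and 288, 328, 263, 271 and 277 in the Abi3-/- replicates. It rose by 0.39 on the log2 scale (SE 0.111, DESeq2 adjusted p = 0.0396), and kept its call in 5 of 11 fits that left out an animal. With edgeR the adjusted p was 0.211.

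In 3 genes of this list, or 12%, the groups did not overlap, against 1.04% of all genes. Besides Rab5c these were Snx2, which acts in the same complex as Snx1, and Clta, a clathrin light chain. Snx2 had 65.9 to 95.7 normalized counts in Abi3+/+ animals and 101, 128, 127, 119 and 101 in the Abi3-/- replicates, with a log2 fold change of 0.48 (DESeq2 adjusted p = 0.124). That of Clta was 0.23 (DESeq2 adjusted p = 0.0973). Snx5 and Snx6, the other sorting nexins that pair with Snx1 and Snx2, had log2 fold changes of 0.09 (SE 0.144) and -0.02 (SE 0.147). The median of the list was 0.07. With the microglia marker level as a covariate this median was 0.13, and with the reads outside genes -0.09.

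**Figure D4:**
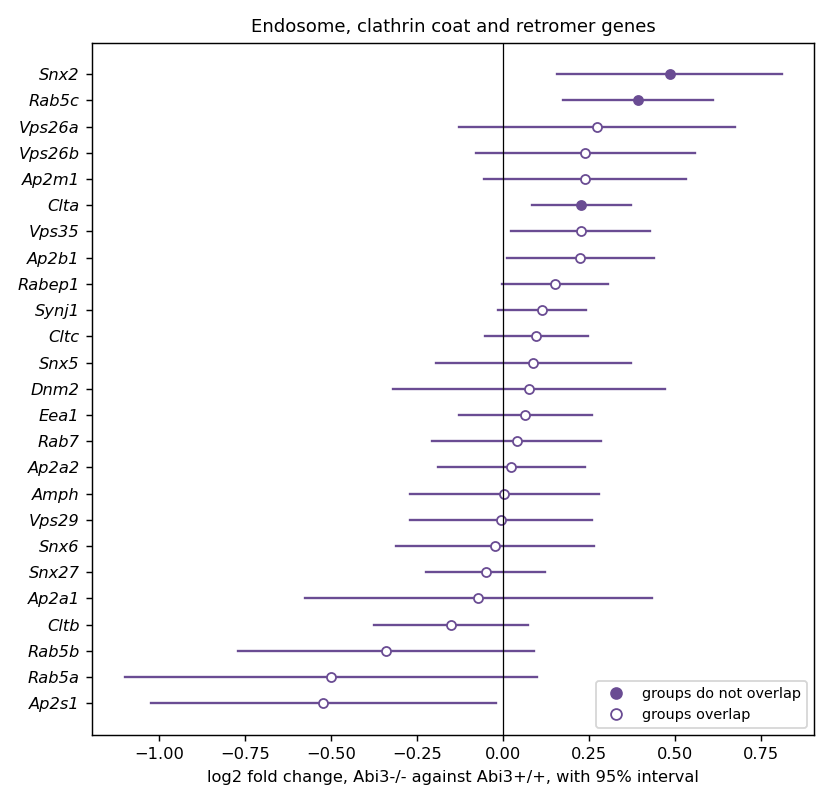
Log2 fold change of Abi3-/- against Abi3+/+ (x axis) with its 95% interval for the 25 endosome, clathrin coat and retromer genes, ordered by size; filled points mark genes whose groups did not overlap. The filled points are Snx2, Rab5c and Clta, and 17 of the 25 genes lie above 0.

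In lipid efflux and uptake, around Abca1, Abca7 and Clu, 0 of 10 genes passed and 0 had an unadjusted DESeq2 p at or below 0.05, nor did any pass with edgeR or limma. Among those with the smallest p, Soat1, which esterifies cholesterol, had a log2 fold change of 0.18 and the oxysterol receptor Nr1h2 one of -0.24. Of 15 focal adhesion genes, around Ptk2b and Fermt2, 14 were tested, and 0 passed with DESeq2, edgeR or limma and 0 had an unadjusted DESeq2 p at or below 0.05. The integrin-linked kinase Ilk came closest, with mean normalized counts of 60.6 ± 3.90 (SD, n = 6) and 77.4 ± 8.29 (SD, n = 5) and a log2 fold change of 0.35 (DESeq2 adjusted p = 0.429). Its partners Parva and Lims1 had 0.31 and -0.26. The medians of the lists were -0.02 and -0.05. These were -0.02 and -0.05 with the microglia marker level as a covariate, and 0.04 and 0.05 with the reads outside genes.

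**Figure D5:**
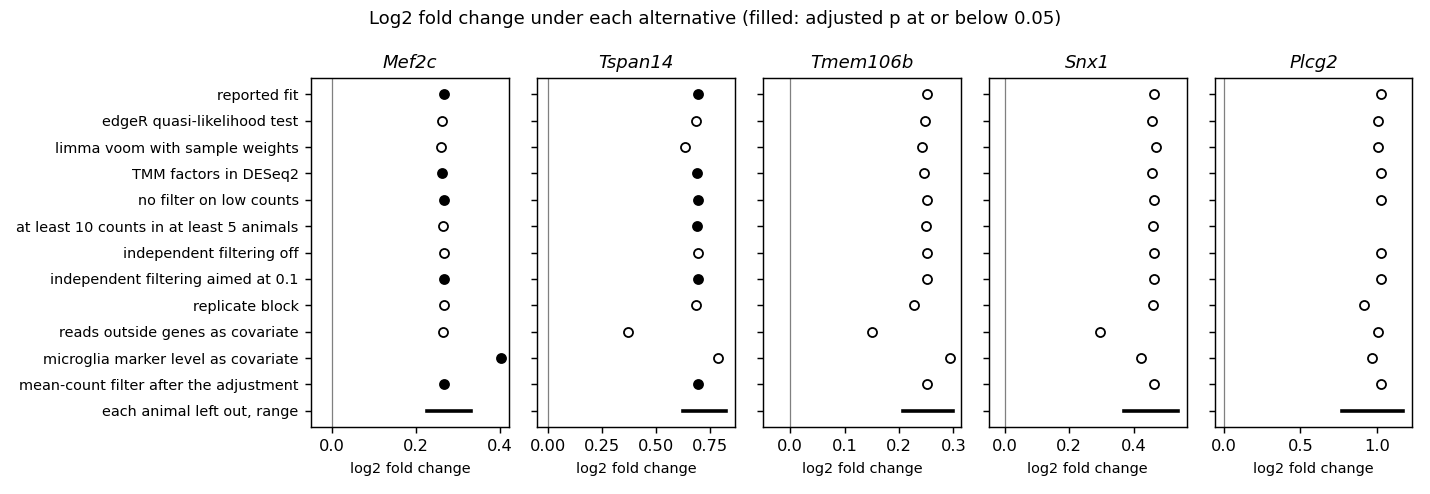
Log2 fold change of Abi3-/- against Abi3+/+ (x axis, with 0 as a grey line) of the 5 risk genes with an unadjusted p at or below 0.05, under each alternative (y axis); filled points mark an adjusted p at or below 0.05 and the bar spans the 11 fits that left out an animal. The direction was the same in every fit shown, the value of Tspan14 went from 0.69 to 0.37 with the reads outside genes as a covariate, and the filled points are confined to Mef2c and Tspan14.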

How the data were processed

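The authors trimmed single-end reads, aligned them to GRCm39 with STAR (version 2.7.3a) and counted reads per Ensembl gene by strand with htseq-count (HTSeq version 0.9.1). The deposited values are raw counts, with tallies of reads given to no gene (33.5% to 41.0% of uniquely aligned reads), which were left out of library sizes. Only reads aligned to 1 place were counted. No removal of PCR copies is stated. Names and positions came from a later GENCODE annotation of the same build, in which 52610 of the 53700 identifiers were found. Genes with a total of at least 10 counts were fitted with DESeq2 (version 1.42.0) in R (version 4.3.3), the model holding genotype alone. Those whose normalized counts averaged 1.5 or more were kept for Benjamini-Hochberg adjustment, with independent filtering aimed at 0.05. Normalized counts are counts divided by DESeq2 size factors, and intervals are at 95%. Alternatives included edgeR (version 4.0.16) and limma (version 3.58.1).

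All 32 members were accounted for. The values of all Abi3-/- animals, and the lowest, median and highest of Abi3+/+, were given for members with an unadjusted p at or below 0.05, without overlap, or microglia-enriched with a mean of at least 5 normalized counts. Of each partner list, the genes past the threshold or up to 3 with the smallest p were named, and 1 gene that the rule includes is not reported here. Snx5, Snx6 and Ap2s1 fall outside this rule and were chosen after their values were seen. The members and lists were chosen with earlier results of these data known. In simulated counts of 17626 genes, DESeq2 recovered 74.0% of 200 genes changed by 1 on the log2 scale, and 8.64% of its calls were false. The changed genes were drawn only from those above a minimum mean count. The recovered share therefore describes neither members with few counts, such as Plcg2, nor changes as small as those of Tspan14 and Mef2c. Nothing in the labels says whether animals shared litters.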

Additional observations from a re-analysis of the deposited data

Results flagged for a closer look

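Of 54 groups of values examined, those of 27 members with a mean of at least 5 normalized counts taken by genotype, 2 held an animal that lay far from the rest of its group, and chance gives about 2.7 such groups. Fermt2 was highest in Abi3+/+ replicate 3, at 295 normalized counts against 252 in the nearest Abi3+/+ animal. Mef2c was highest in Abi3+/+ replicate 4, at 3060 normalized counts against 2533 in the nearest. Without that animal the log2 fold change of Mef2c was 0.33, with a DESeq2 adjusted p of 6.1e-05.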

How the results depend on the processing

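The number of genes past the threshold over the whole table, 85 in the reported fit (55 higher and 30 lower), was 20 under limma and 37 under edgeR (17 up and 20 down), 35 under the replicate block and 3 with the reads outside genes as a covariate, and 45 to 120 without 1 animal. Independent filtering switched off gave 58, with 30 higher and 28 lower. Adjusting before the mean-count filter, an alternative chosen after seeing the data, gave 95. The count of members past the threshold, 2, was 0 with edgeR, limma, independent filtering off, the replicate block and the reads outside genes, 1 with a stricter count filter (Tspan14) or the microglia marker level as a covariate (Mef2c), and 0 to 2 without 1 animal. The cause was not tested. The replicate numbers do not pair the animals (correlations of same-numbered animals from -0.0198 to 0.123), and Abi3+/+ replicate 6 has no partner and was left out of that fit.

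The median log2 fold changes of the microglia-enriched and other risk genes and their difference moved by less than the spread between animals under every alternative, narrower and wider microglia-enriched lists included. The direction of 12 of 29 members held in every fit, among them those of Tspan14, Mef2c, Tmem106b, Snx1 and Plcg2, and 17 turned in at least 1. With limma Rin3 was 0.47 and Wwox -0.0241, and with the replicate block Rin3 was 0.36, Abca7 -0.10 and Echdc3 0.18. The reads outside genes as a covariate gave -2.67 for Treml2, -0.71 for Blnk, 0.0847 for Cd2ap, 0.0763 for Sorl1, -0.0299 for Usp6nl, -0.80 for Abca7, 0.011 for Celf1, -0.0402 for Wwox and 1.74 for Echdc3. The microglia marker level gave -0.15 for Inpp5d, 0.21 for Rin3, 0.0211 for Bin1, -0.0524 for Clu, -0.0821 for Grn and 0.0383 for Celf1. Without 1 animal, Abca7 ran from -0.14 to 0.25, Celf1 from -0.0737 to 0.0104, Echdc3 from -1.76 to 0.45, Fermt2 from -0.0743 to 0.0118, Inpp5d from -0.0264 to 0.27, Picalm from -0.0599 to 0.00738, Rin3 from -0.36 to 0.23, Sharpin from -0.25 to 0.0116, Sorl1 from -0.0715 to 0.0584, Treml2 from -0.48 to 0.50, Usp6nl from -0.0447 to 0.34 and Wwox from -0.13 to 0.21. Counts limit Scimp, Epha1, Cass4, Rin3, Echdc3, Treml2 and Plcg2 most.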
